A study of Homo sapiens with 18 samples.

Results

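How far the effect of PRT3789 on transcript levels grew between 6 and 48 h was measured in 12 of the 18 libraries of a study on NCI-H1693 cells, an established human line of non-small cell lung cancer. The 12 libraries were chosen by their labels alone: cells given 50 nM PRT3789 or its solvent DMSO for 6 h or for 48 h, with 3 libraries in each of the 4 groups. The submitters describe the line as deficient in SMARCA4, and both the treated and the control cells share that background. The labels do not say whether replicates were separate cultures, so the p-values measure the spread between these libraries, which may be technical. A further 6 libraries of 72 h, 3 per treatment, entered only a fit of their own. NCI-H1693 was the only line and 50 nM the only dose, so effects of the compound and features of this line cannot be told apart.

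The compound PRT3789 causes the selective degradation of the SMARCA2 protein. SWI/SNF complexes run on an ATPase motor that is either SMARCA2 or its relative SMARCA4, and they slide or evict nucleosomes and keep enhancers and promoters open to transcription factors. In cells without SMARCA4 activity the complexes depend on SMARCA2. Transcripts can follow such a loss at once or only after earlier products have decayed or other regulators have changed.

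For each gene the quantity of interest was the log2 fold change of PRT3789 against DMSO at 48 h minus the same log2 fold change at 6 h, here called the change of effect. It is the shift of the ratio of PRT3789 to DMSO between the times, so a value of 1 is a 2-fold upward shift of that ratio. Each value comes with its standard error (SE, after the ± sign) and with a p from edgeR's quasi-likelihood test that was adjusted by the Benjamini-Hochberg method over all 15940 tested genes. Genes with an adjusted p under 0.05 are named as called. Levels are given in CPM, the standard count scaled to the TMM-adjusted library total, listed in the order of replicates 1, 2 and 3, and they do not allow for transcript length. The ranges and sums of cell type markers differ in that they were scaled to the plain library total, without TMM factors. Gene positions are those of RefSeq on GRCh38.p14.

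The transcript of the degraded protein itself changed little. SMARCA2 stood at 43.2, 38.2 and 35 CPM in DMSO and 41.6, 43.6 and 33.9 CPM in PRT3789 at 6 h, and 44.1, 39.9 and 41.6 CPM in DMSO and 38.6, 34.3 and 36.4 CPM in PRT3789 at 48 h. The groups overlapped at 6 h and lay apart at 48 h, with PRT3789 below DMSO, and the change of effect of -0.23 ± 0.15 (adjusted p = 0.371) was not called. SMARCA4 transcript was present at 6.33, 6.7 and 11.7 CPM in DMSO and 7.39, 6.94 and 7.73 CPM in PRT3789 at 6 h, and 9.24, 10.8 and 9.17 CPM in DMSO and 9.33, 9.97 and 10.8 CPM in PRT3789 at 48 h, with overlapping groups at both times and a change of effect of 0.20 ± 0.27 (adjusted p = 0.698). A transcript level says nothing of whether the protein was made or degraded.

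The line carried its epithelial markers in all 12 libraries: EPCAM ranged from 581 to 840 CPM and CDH1 from 117 to 335 CPM. Markers of differentiated lung cells were low: NKX2-1 ran from 0.148 to 0.941 CPM, NAPSA from 0.0403 to 2.96 CPM and SFTPB from 0 to 0.279 CPM, and SFTPC was at 0 in all 12 libraries. The summed blood cell markers ran from 7.04 to 17.1 CPM, with PTPRC at no more than 0.993 CPM and NKG7 and HBB at 0 throughout. Fibroblast and endothelial markers summed to more, from 112 to 154 CPM. Of these LUM ran from 63.9 to 117 CPM, COL1A1 from 10.6 to 24.6 CPM and FAP from 9.96 to 20.2 CPM. THY1, PECAM1 and VWF of the same list were at no more than 0.228 CPM. Where the transcripts of that list came from was not tested. Libraries held 23154484 to 31094797 counts. The total of replicate 3 of DMSO at 48 h was exactly 27000000, and whether that column had been rescaled is not given in the sources used here. Without it the changes of effect called below numbered 794 more positive and 1168 more negative. Replicates were less alike at 6 h, with a median SD per gene of 0.168 for DMSO and 0.149 for PRT3789 (log2 CPM, 10998 genes), than at 48 h, with 0.118 and 0.0642. In the 6 h libraries the deviations also followed transcript length, with Spearman correlations across genes from -0.45 to 0.461, and ribosomal RNA took 5.13% of the counts in replicate 2 of DMSO at 6 h against 0.923% to 2.52% in the others. The part these played in the results was not tested beyond the alternatives given in the closing section.

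Some genes were high in a few libraries in ways that the groups do not describe, and they are given before the results because they hold some of the largest fitted values. CXCL6, a chemokine, stood at 0, 0 and 0.0463 CPM in DMSO and 0, 7.33 and 10.2 CPM in PRT3789 at 6 h, and 18.8, 0 and 0.218 CPM in DMSO and 0.0351, 0.0814 and 0 CPM in PRT3789 at 48 h. SPP1, which encodes osteopontin, followed the same libraries with 0.781, 0.699 and 0.973 CPM in DMSO and 0.401, 8.54 and 12 CPM in PRT3789 at 6 h, and 19.2, 0.19 and 0.218 CPM in DMSO and 0.211, 0.204 and 0.0653 CPM in PRT3789 at 48 h. Both were high in replicates 2 and 3 of PRT3789 at 6 h and in replicate 1 of DMSO at 48 h, and low in the 9 others. KRT5 and KRT6A, keratins of basal and squamous cells, were high in the neighbouring set of replicate 3 of PRT3789 at 6 h and replicates 1 and 2 of DMSO at 48 h, where KRT6A reached 0.0669, 0.104 and 12 and 13.4, 6.82 and 0 CPM. Among called genes with a mean of at least 5 CPM in a group CXCL6, KRT6A and KRT5 would head those whose effect became more negative, with fitted values of -15.55, -11.92 and -9.58, and no such value is read here as a response to PRT3789. PDZK1IP1, RPPH1 and the histone gene H2AC19, which has a near-identical copy, were uneven in the same sense.

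A second set went with 4 libraries, all treated. SFTPA2, a surfactant protein of the lung, stood at 0.0823, 0 and 0 CPM in DMSO and 4.65, 5.17 and 3.66 CPM in PRT3789 at 6 h, and 0.0371, 0 and 0 CPM in DMSO and 0, 0 and 4.24 CPM in PRT3789 at 48 h. PLAT, the tissue plasminogen activator, stood at 2.3, 2.71 and 2.83 CPM in DMSO and 13, 12.1 and 11.6 CPM in PRT3789 at 6 h, and 3.27, 3.23 and 3.35 CPM in DMSO and 0.807, 0.611 and 10.8 CPM in PRT3789 at 48 h. Both were high in the 3 PRT3789 libraries of 6 h and in replicate 3 of PRT3789 at 48 h, and low in the 8 others. SFTPA1, AZGP1, CEACAM6, HLA-DRA and HOPX were high in the same 4 libraries, and NAPSA leaned the same way. In edgeR the smallest adjusted p among these 8 genes was 0.051 at 6 h (SFTPA2) and 0.253 for the change of effect (CEACAM6). At an unadjusted p under 0.05 there were 7 of the 8 at 6 h. Their pattern covers the whole treated group of 6 h, so that there it cannot be told apart from the treatment. Without replicate 3 of PRT3789 at 48 h the changes of effect called below numbered 644 more positive and 1001 more negative. Whether RNA of another sample was present in the libraries of either set was not tested.

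**Figure D1:**
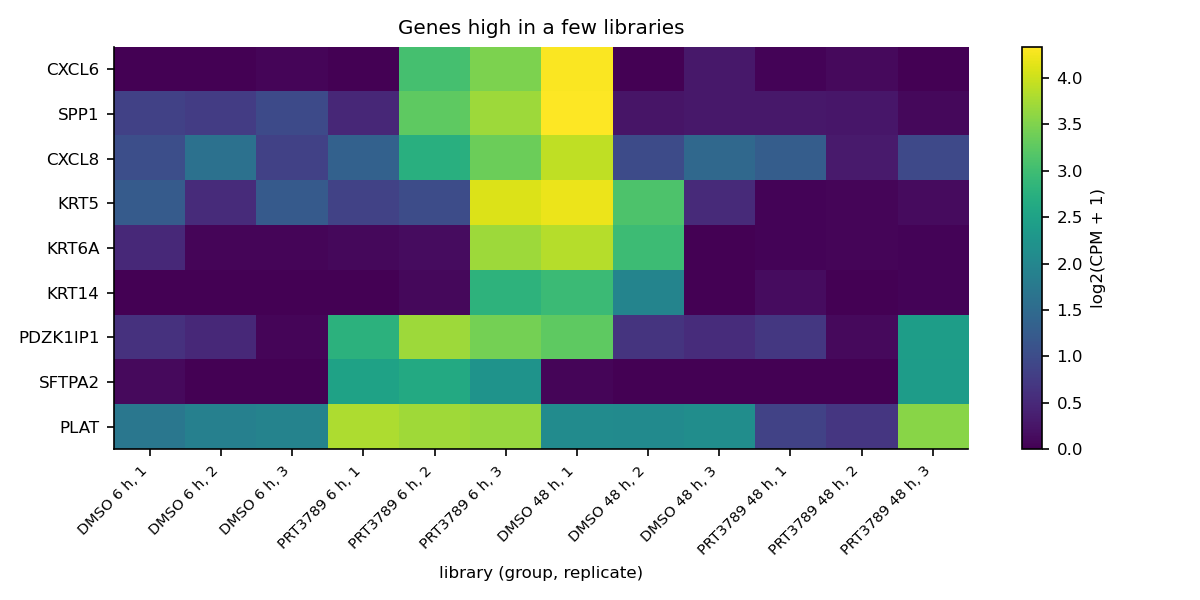
Level of 9 genes in each of the 12 libraries, as log2(CPM + 1) on a colour scale, with libraries in columns ordered by group and replicate. CXCL6, SPP1 and CXCL8 are bright in the same 3 libraries, which belong to 2 groups, and SFTPA2 and PLAT in the 3 PRT3789 libraries of 6 h and replicate 3 of PRT3789 at 48 h.

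Of the 15940 tested genes, 72 had a library above 4 times the lowest of its group after 0.5 CPM was added to each, and 16 of these 72 (22.2%) were called for a change of effect. Leaving them out before the fit, an alternative chosen after the data were seen, left the counts below within a factor of 1.5.

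Between 6 and 48 h the effect of PRT3789 changed for 2265 of the 15940 tested genes (14.2%). It became more positive for 932 genes (5.85%) and more negative for 1333 (8.36%), and the shift was at least 2-fold for 333 (2.09% of tested genes) and 626 (3.93%). At an unadjusted p under 0.05 there were 4237 genes (26.6%) for the change of effect and 1927 (12.1%) for the 6 h effect. At 6 h PRT3789 had raised 86 genes (0.54%) and lowered 356 (2.23%), whereas at 48 h it had raised 2787 (17.5%) and lowered 3024 (19%). Without replicate 1 of PRT3789 at 48 h the 932 became 593. The numbers at 6 h rested on the noisier libraries: they were 31 and 234 without replicate 2 of DMSO, 41 and 229 without replicate 1 of PRT3789, 42 and 278 without replicate 3 of DMSO, 43 and 272 without replicate 2 of PRT3789 and 141 and 355 without replicate 1 of DMSO. The 72 h libraries, which neither of these effects used, gave the same sign with a call for 880 of the 927 genes with a positive change of effect that were testable there and for 1247 of the 1298 with a negative one. The backgrounds at 72 h were 28.9% of genes higher and 29.7% lower. Only 6 and 3 genes were called in the opposite direction at 72 h.

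**Figure D2:**
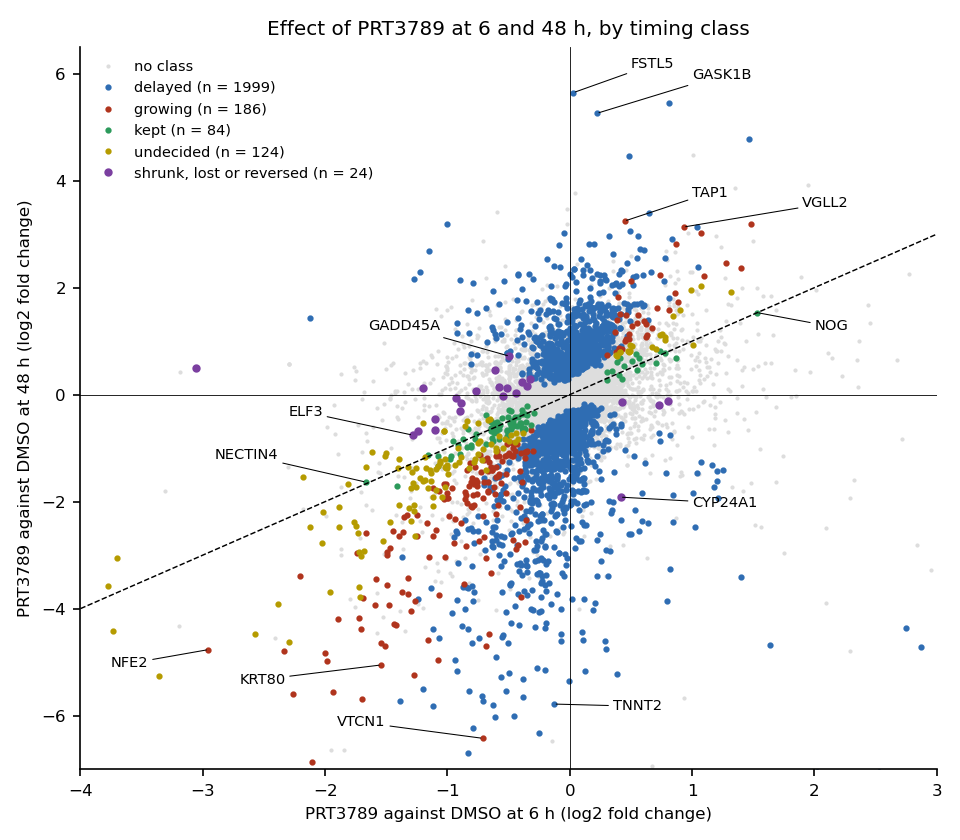
Log2 fold change of PRT3789 against DMSO at 6 h (horizontal) and 48 h (vertical) for each tested gene, coloured by timing class, with the dashed line marking equal effects. Most coloured points stand in a vertical band near 0 at 6 h, and 49 of the 15940 genes fall outside the axes.

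Calls at the 2 times and of the change between them sort the genes into timing classes. The 3 calls share libraries, so the counts are a description. A response was termed delayed where the change of effect and the 48 h effect were called in one direction and the 6 h effect was not called. There were 851 delayed rises and 1148 delayed falls. For 637 of the rises and 781 of the falls, the 95% interval of the 6 h effect lay within 0.58 of 0 on the log2 scale (1.49-fold). For the others that interval reached farther. The median delayed fall went from -0.08 at 6 h to -0.99 at 48 h, and the median delayed rise from 0.05 to 0.88.

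Of the 442 genes called at 6 h, 186 kept their direction and grew (35 rises, 151 falls). A further 84 (18 rises, 66 falls) had an effect at 48 h that differed from that at 6 h by less than 0.58 over the whole 95% interval, and these are termed kept. For 124 more (21 rises, 103 falls) the data could not decide between the 2 patterns. Another 5 falls shrank, 14 responses (4 rises, 10 falls) were lost by 48 h, and 5 reversed. The other 24 (7 rises, 17 falls) were called at 6 h only, without a called change of effect. Outside the 442, another 56 genes had a called change of effect but fit none of these terms (27 more positive, 29 more negative). They had no call at 6 h and none in that direction at 48 h. The median effect of the 29 was 1.36 at 6 h and -0.86 at 48 h. Of the 18 kept rises and 66 kept falls, 18 and 62 were called in the same direction at 72 h. Of the 10 lost falls, 8 were called above DMSO at 72 h and 0 below it. Of the 4 lost rises, 1 was called above and 1 below. The classes of the early responses are the least settled numbers here: with voom weights per group in limma the kept class held 8 rises and 41 falls, and with all 18 libraries in the fit 59 and 110.

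The delayed rises included genes at low levels in DMSO. GASK1B, which encodes a Golgi membrane protein (chr4:158124474-158173025), stood at 8.27, 8.06 and 6.3 CPM in DMSO and 9.6, 9.23 and 7.63 CPM in PRT3789 at 6 h, and 4.16, 4.25 and 5.31 CPM in DMSO and 164, 181 and 181 CPM in PRT3789 at 48 h. The groups overlapped at 6 h, and at 48 h every PRT3789 library was above every DMSO library, 38.3-fold in the fit. The change of effect was 5.04 ± 0.19 (adjusted p = 2.46e-08), made up of 0.22 at 6 h and 5.26 at 48 h, and the effect was 5.16 at 72 h.

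FSTL5, a follistatin-like secreted protein, stood at 0.864, 0.576 and 0.556 CPM in DMSO and 0.769, 0.903 and 0.376 CPM in PRT3789 at 6 h, and 0.742, 0.349 and 0.364 CPM in DMSO and 23.4, 24.2 and 25 CPM in PRT3789 at 48 h. It was near the limit of detection in 9 libraries and clearly present in the 3 PRT3789 libraries of 48 h, with a change of effect of 5.62 ± 0.46 (adjusted p = 7.25e-06). PLAGL1, an imprinted zinc-finger transcription factor, stood at 21.5, 23.6 and 24.6 CPM in DMSO and 25.4, 27.1 and 27.6 CPM in PRT3789 at 6 h, and 25.4, 25.5 and 27.6 CPM in DMSO and 181, 186 and 188 CPM in PRT3789 at 48 h. Its 6 h groups lay apart by a small margin that was not called (0.20 ± 0.08 (adjusted p = 0.261)), while the change of effect was 2.62 ± 0.11 (adjusted p = 2.62e-08). RGS2, a negative regulator of G-protein signalling, had 52.8, 62.2 and 55.5 CPM in PRT3789 against 6.68, 7.26 and 6.37 CPM in DMSO at 48 h and a change of effect of 2.58 ± 0.22 (adjusted p = 1.08e-05).

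Other large delayed rises were those of HNF4G, a nuclear receptor of gut and endoderm (2.88), COL3A1, the chain of type III collagen (2.66), AHRR, the repressor of the aryl hydrocarbon receptor (4.19), the protocadherin PCDH19 (3.31) and ANKS1B (2.47). COL3A1 reached 16, 13.1 and 11.6 CPM with PRT3789 at 48 h, against 1.74, 2.09 and 1.89 CPM with DMSO. For AHRR part of the value came from 6 h, where the effect was -1.01 without a call. PCDH19 leaned the other way at 6 h, at 1.47 ± 0.36 (adjusted p = 0.0555), and is classed as delayed by a narrow margin.

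Among genes with a mean of at least 5 CPM in a group and outside the 72 uneven ones, the falls of VTCN1, TNNT2 and GABRP were the largest under the naming rule. VTCN1 encodes B7-H4, an inhibitory ligand of T cells found on many carcinomas (chr1:117143587-117210927), and stood at 25.1, 27.3 and 21.7 CPM in DMSO and 16.5, 14.2 and 14.5 CPM in PRT3789 at 6 h, and 35.6, 38.5 and 37.8 CPM in DMSO and 0.702, 0.285 and 0.294 CPM in PRT3789 at 48 h. PRT3789 libraries were below DMSO libraries without overlap at 6 h and almost empty at 48 h. The effect went from -0.71 ± 0.14 (adjusted p = 0.0159) at 6 h to -6.42 ± 0.21 (adjusted p = 1.11e-09) at 48 h, a change of -5.71 ± 0.26 (adjusted p = 8.36e-08), so VTCN1 belongs to the growing responses.

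TNNT2, the cardiac form of troponin T, stood at 4.73, 3.7 and 5.05 CPM in DMSO and 3.81, 4.1 and 4.41 CPM in PRT3789 at 6 h, and 12.5, 12.4 and 11.7 CPM in DMSO and 0, 0.489 and 0.196 CPM in PRT3789 at 48 h. At 6 h its groups overlapped. At 48 h the DMSO libraries had risen and the PRT3789 libraries had dropped to 0.489 CPM or less. The change of effect was -5.66 ± 0.50 (adjusted p = 1.27e-05). GABRP, a subunit of the GABA-A receptor found in epithelia, went the same way, from 9.83, 9.06 and 7.97 to 0.983, 0.326 and 0.359 CPM with PRT3789 and from 13.1, 10.6 and 13.2 to 32.4, 38.9 and 37.9 CPM with DMSO. ALPP, the placental alkaline phosphatase, had a change of effect of -4.94 ± 0.27 (adjusted p = 2.4e-07), and TMPRSS13, a membrane serine protease, one of -5.01 ± 0.48 (adjusted p = 2.59e-05). ANXA8L1 (-5.36) shares nearly all of its sequence with ANXA8, so its own level is uncertain.

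KRT80, a keratin of epithelial cells (chr12:52168996-52192014), showed an early fall that deepened. It stood at 427, 375 and 348 CPM in DMSO and 139, 152 and 104 CPM in PRT3789 at 6 h, and 581, 557 and 537 CPM in DMSO and 18.5, 16.3 and 15.6 CPM in PRT3789 at 48 h. At 6 h the treated libraries were 2.91-fold below the controls and at 48 h 33.2-fold, without overlap at either time, and the change of effect was -3.51 ± 0.19 (adjusted p = 2.38e-07). PLAU, the urokinase-type plasminogen activator, was instead delayed: 175, 173 and 166 CPM with PRT3789 at 6 h against 206, 214 and 202 CPM with DMSO, then 28.4, 21.6 and 57.4 CPM against 257, 275 and 279.5 CPM. Replicate 3 of PRT3789 at 48 h was well above the other two for PLAU, and the change of effect of -2.64 ± 0.36 (adjusted p = 0.000361) has a correspondingly large SE.

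**Figure D3:**
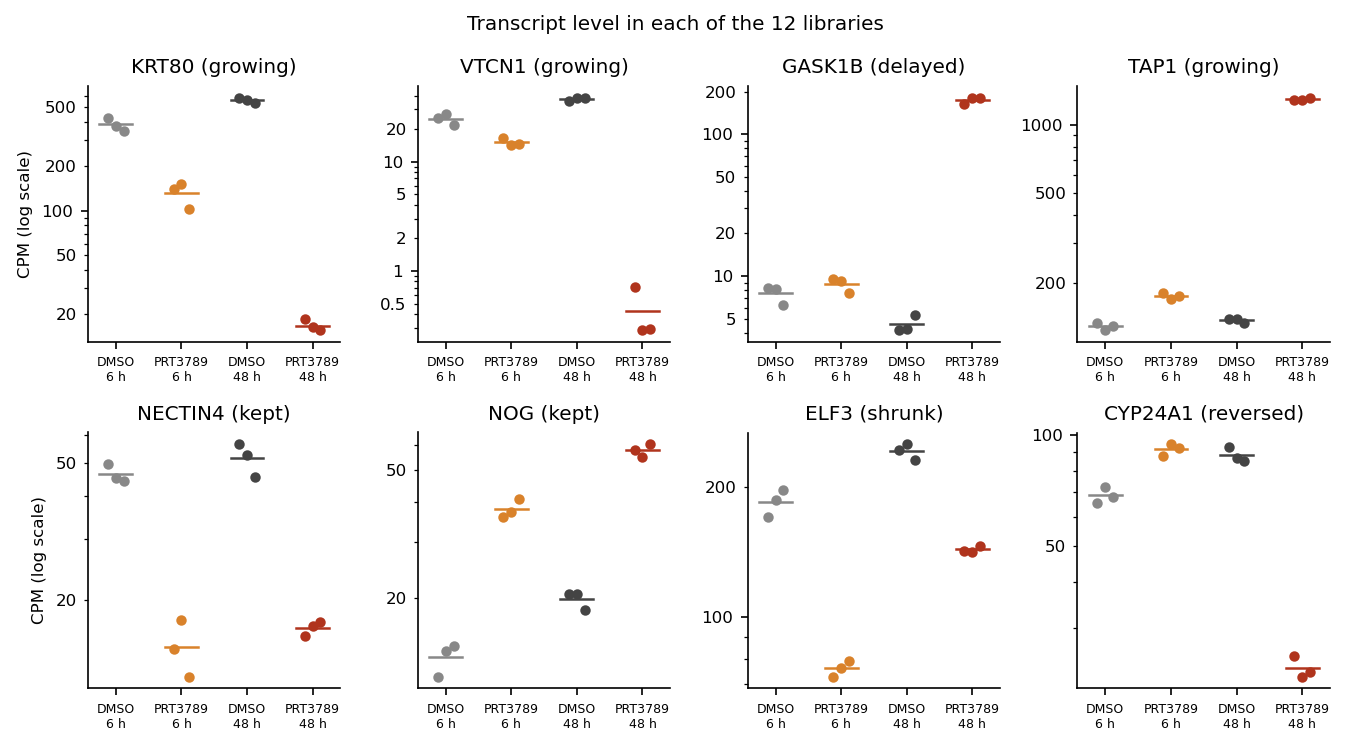
CPM (log scale) of 8 genes in each library of the 4 groups, with points for libraries and a line at each group mean; the timing class is given beside each name. GASK1B separates at 48 h alone, NECTIN4 and NOG keep a similar gap at both times, and CYP24A1 changes sides.

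Promoter sequence is shown for 3 of these genes that represent a growing fall, a growing rise and a kept fall. The sequences are 300-base windows from RefSeq on GRCh38.p14, from 250 bases before the annotated start to 50 bases after it, written 5′ to 3′ on the gene's strand; all 3 genes lie on the minus strand. Capitals mark matches on either strand to TGANTCA, the core bound by AP-1 factors, to GGAATG, the core bound by TEAD factors, or to a kB site of the NF-kB factors; the last was added after the sequences had been seen. The motifs do not overlap in these windows.
VTCN1, chr1:117210878-117211177: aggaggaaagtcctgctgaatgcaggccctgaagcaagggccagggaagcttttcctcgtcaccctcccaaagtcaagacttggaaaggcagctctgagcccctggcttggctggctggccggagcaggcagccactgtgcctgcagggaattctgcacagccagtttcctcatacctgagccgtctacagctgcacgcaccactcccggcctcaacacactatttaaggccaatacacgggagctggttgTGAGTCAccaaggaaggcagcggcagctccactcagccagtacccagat
TAP1, chr6:32853655-32853954: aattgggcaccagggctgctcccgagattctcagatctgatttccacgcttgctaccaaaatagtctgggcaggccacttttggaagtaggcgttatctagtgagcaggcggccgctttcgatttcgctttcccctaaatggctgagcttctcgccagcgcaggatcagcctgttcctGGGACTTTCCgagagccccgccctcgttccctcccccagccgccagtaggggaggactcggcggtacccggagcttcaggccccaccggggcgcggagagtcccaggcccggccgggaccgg
NECTIN4, chr1:161089509-161089808: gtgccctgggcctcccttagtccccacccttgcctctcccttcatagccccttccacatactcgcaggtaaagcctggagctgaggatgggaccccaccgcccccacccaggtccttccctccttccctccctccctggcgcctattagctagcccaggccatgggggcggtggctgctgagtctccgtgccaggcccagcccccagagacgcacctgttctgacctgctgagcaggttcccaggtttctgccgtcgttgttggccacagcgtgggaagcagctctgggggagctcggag
VTCN1 held 1 AP-1 match, TAP1 held 1 kB match, and none of these motifs was in the NECTIN4 window. The windows of GASK1B, PLAGL1, PLAU and ELF3 were searched as well and held no match, and they are not shown. No window was available for KRT80, NOG, NFE2 and GBP2. Over the 12318 tested genes whose window could be matched, 4.72% held the AP-1 core, 11% the TEAD core and 1.6% the kB core. Those are 77.3% of the tested genes, and the others were not searched. Of 861 delayed falls with a window 7.2% held the AP-1 core, 10.8% the TEAD core and 1.97% the kB core. Of 671 delayed rises these shares were 4.62%, 14.2% and 1.34%. Differences between timing classes by motif were not tested. A match is a run of letters and does not show that a factor was bound.

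The kept responses included genes of cell contacts. NECTIN4, an adhesion molecule of epithelia (chr1:161070998-161089558), stood at 49.5, 45.1 and 44.1 CPM in DMSO and 14.3, 17.4 and 11.9 CPM in PRT3789 at 6 h, and 56.6, 52.4 and 45.4 CPM in DMSO and 15.7, 16.8 and 17.2 CPM in PRT3789 at 48 h. The treated libraries were far below the controls at both times with no overlap, at -1.67 ± 0.13 (adjusted p = 2.03e-05) and -1.63 ± 0.13 (adjusted p = 9.71e-07), and the change of effect of 0.03 had a 95% interval inside 0.58. CLDN4, a tight junction claudin, fell to 2.11-fold below DMSO at 6 h and 2.53-fold at 48 h.

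The kept falls also included regulators. CSRNP1, a nuclear protein, was at -1.16 and -1.13, TRIM38, a ubiquitin ligase of innate immunity, at -1.07 and -1.15, and TFAP2C, the transcription factor AP-2 gamma, at -0.96 and -0.87 at 6 and 48 h. SAMD9L, an interferon-inducible gene, showed how a kept effect can ride on moving levels: with DMSO it went from 6.87, 6.95 and 6.49 to 11.8, 11.9 and 12.9 CPM and with PRT3789 from 3.34, 3.96 and 3.08 to 5.12, 5.25 and 6.07 CPM, while its effect went from -0.97 to -1.15.

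Among kept rises NOG was the largest by its 6 h effect. NOG encodes noggin, a secreted antagonist of BMPs (chr17:56593699-56595611), and stood at 11.4, 13.8 and 14.2 CPM in DMSO and 35.9, 37 and 40.8 CPM in PRT3789 at 6 h, and 20.6, 20.7 and 18.4 CPM in DMSO and 57.8, 55.1 and 60.3 CPM in PRT3789 at 48 h. Treated libraries were 2.88-fold above controls at 6 h and 2.9-fold at 48 h, and both arms rose over time by about the same amount, 0.60 with DMSO and 0.61 with PRT3789. MIR1915HG, a non-coding host transcript, EEPD1, FLRT2, a transmembrane guidance protein, DNAJB5 and TESK1 were kept at smaller effects, from 0.57 to 0.87 at 6 h. Of the 84 kept genes 12 had an interval that ended within 0.05 of the limit.

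Early responses that grew were mostly falls. NFE2, a transcription factor best known from blood cells, stood at 6.46, 7.32 and 7.74 CPM in DMSO and 0.836, 0.729 and 1.2 CPM in PRT3789 at 6 h, and 15, 14 and 14.3 CPM in DMSO and 0.491, 0.529 and 0.555 CPM in PRT3789 at 48 h. Its treated libraries were at 1.2 CPM or less at both times while the controls rose, and the effect went from -2.95 ± 0.16 (adjusted p = 3.18e-06) to -4.77 ± 0.17 (adjusted p = 1.71e-09). FGFR2, a receptor of fibroblast growth factors, went from 2.17-fold lower at 6 h to 6.23-fold lower at 48 h, with 17.7, 14.9 and 16.6 CPM against 101, 103 and 103 CPM. WNT7A, a Wnt ligand, had a change of effect of -1.85 ± 0.24 (adjusted p = 0.000304), and GJA5, a connexin, one of -2.46 ± 0.42 (adjusted p = 0.00197). SLC2A1, the glucose transporter GLUT1, stood at 171, 128 and 126 CPM in DMSO and 83.2, 90 and 62.8 CPM in PRT3789 at 6 h, and 281, 260.1 and 235 CPM in DMSO and 36.1, 39 and 34.7 CPM in PRT3789 at 48 h, a step from -0.85 to -2.82. FGD3, SOWAHD, CRYBG2 and the non-coding LINC02967 had 6 h effects from -2.21 to -1.66 and grew further. The call for the change of effect was lost for FGD3 in 3 of 24 alternatives (without replicate 1 of PRT3789 at 6 h and replicate 2 or 3 of PRT3789 at 48 h) and for CRYBG2 in 1 (without replicate 2 of PRT3789 at 48 h).

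Growing rises included GLI1, the transcription factor at the end of the Hedgehog pathway, which stood at 1.89, 2.18 and 1.44 CPM in DMSO and 4.71, 5.28 and 4.62 CPM in PRT3789 at 6 h, and 3.3, 3.71 and 2.8 CPM in DMSO and 18.7, 15.1 and 17.2 CPM in PRT3789 at 48 h. Its groups lay apart at both times, and its change of effect was 0.98 ± 0.22 (adjusted p = 0.0107); with voom weights per group its adjusted p was 0.0522. KITLG, the ligand of the receptor KIT, rose from 1.83-fold to 7.04-fold above DMSO, with 152, 158 and 156 CPM against 22.4, 19.6 and 24.2 CPM at 48 h. VGLL2, a cofactor of TEAD factors, stood at 1.69, 2.14 and 1.85 CPM in DMSO and 3.51, 3.02 and 4.31 CPM in PRT3789 at 6 h, and 4.08, 4.66 and 4.44 CPM in DMSO and 37.5, 39 and 39.5 CPM in PRT3789 at 48 h, and its change of effect was 2.20 ± 0.19 (adjusted p = 1.27e-05). NR4A3, an orphan nuclear receptor that responds early to many stimuli, went from 1.48 to 3.20, and the neuronal adhesion gene SLITRK5 from 1.28 to 2.47.

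A small number of genes went back or changed sides. ELF3, an ETS factor of epithelia (chr1:202010587-202017183), stood at 171, 187 and 198 CPM in DMSO and 72.8, 76.3 and 79.1 CPM in PRT3789 at 6 h, and 244, 252 and 232 CPM in DMSO and 143, 142 and 147 CPM in PRT3789 at 48 h. Treated libraries were below controls at both times without overlap, but the gap narrowed from -1.28 ± 0.07 (adjusted p = 3.18e-06) to -0.76 ± 0.07 (adjusted p = 6.14e-06), a change of effect of 0.53 ± 0.10 (adjusted p = 0.00441). Both arms had risen by 48 h, by 0.39 with DMSO and by 0.92 with PRT3789. TUFT1, the receptor OLR1 and the RNA sensor TLR3 shrank likewise, by 0.45, 0.60 and 0.65; the call for TLR3 was lost in 5 of 24 alternatives.

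NFKBIA, the inhibitor of NF-kB that NF-kB itself induces, lost its early fall. It stood at 54.2, 64.3 and 66.1 CPM in DMSO and 39.7, 37.8 and 45.8 CPM in PRT3789 at 6 h, and 56.4, 60.6 and 58.2 CPM in DMSO and 60.6, 66.4 and 66.6 CPM in PRT3789 at 48 h, with an effect of -0.58 ± 0.10 (adjusted p = 0.00511) at 6 h and 0.14 ± 0.10 (adjusted p = 0.262) at 48 h. The early fall of GBP3, a guanylate-binding protein, was lost in the same way, from -0.89 to -0.16, and at 72 h its effect was 0.21 ± 0.06 (adjusted p = 0.00642). ID2, an inhibitor of basic helix-loop-helix factors, lost an early rise: 75.2, 66.3 and 92.6 CPM against 37.5, 49.9 and 53.9 CPM at 6 h and 54.1, 51.3 and 56.8 CPM against 58.4, 59.1 and 68.2 CPM at 48 h, with 0.42 ± 0.06 (adjusted p = 1.87e-06) at 72 h. TINCR, a gene of epidermal differentiation, went from -0.93 to -0.06.

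The 5 reversals began with CYP24A1, the enzyme that breaks down active vitamin D (chr20:54143538-54173986). It stood at 65.6, 72.6 and 68 CPM in DMSO and 88, 94.6 and 92.3 CPM in PRT3789 at 6 h, and 93.2, 86.8 and 85.1 CPM in DMSO and 25.2, 22.2 and 22.8 CPM in PRT3789 at 48 h. Treated libraries were above controls at 6 h and 3.77-fold below at 48 h, with no overlap at either time and a change of effect of -2.33 ± 0.11 (adjusted p = 9.11e-08). GADD45A, a stress and DNA damage response gene, moved the other way, from -0.49 ± 0.10 (adjusted p = 0.0151) to 0.72 ± 0.10 (adjusted p = 9.1e-05), and stood at 112, 117 and 116 CPM with PRT3789 against 66.6, 71.2 and 71.5 CPM with DMSO at 48 h. ZBTB1, NLRP3, the sensor of the inflammasome, and DRAM1, a regulator of autophagy, were below DMSO at 6 h and above it at 48 h, with changes of effect of 0.61, 1.06 and 0.62. At 72 h these 5 genes had the sign they had at 48 h, each with a call.

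Gene lists gave the wider pattern, with 34 lists read by counts of called members beside the 5.85% and 8.36% of all tested genes and the median change of effect of 0.01 over those genes. Genes of mitosis had the largest share of called members among the 34. Of 54 members, 42 became more negative, none became more positive, and the median was -0.72. In edgeR none of the 54 was called at 6 h (0 at an unadjusted p under 0.05) and 47 were lower at 48 h. The mitotic activator CDC20 stood at 179, 178 and 188 CPM in DMSO and 177, 171 and 189.8 CPM in PRT3789 at 6 h, and 134, 139 and 132 CPM in DMSO and 71.2, 69.6 and 71.4 CPM in PRT3789 at 48 h, so that it fell in both arms and further with PRT3789. KIF20A, a kinesin of the mitotic midzone, and CDCA8, a member of the chromosomal passenger complex, had changes of effect of -1.04 ± 0.11 (adjusted p = 4.42e-05) and -0.92 ± 0.09 (adjusted p = 4.44e-05). The median member fell by 0.64 over time with DMSO and by 1.39 with PRT3789.

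Fewer genes of DNA replication were called. Of 46 members 13 became more negative and none more positive, with a median of -0.35. The 13 ran from 6 with no filter on low counts to 18 with all 18 libraries in the fit. They were 7 without replicate 2 of DMSO at 6 h, replicate 1 of PRT3789 at 6 h or replicate 3 of PRT3789 at 48 h, and 8 without replicate 3 of DMSO or replicate 2 of PRT3789 at 48 h. TK1, the thymidine kinase of S phase, stood at 199, 209 and 213 CPM in DMSO and 199, 196 and 217 CPM in PRT3789 at 6 h, and 133, 135 and 121 CPM in DMSO and 76.2, 71.8 and 75.3 CPM in PRT3789 at 48 h. FEN1, a flap endonuclease of replication, fell over time by 1.09 with DMSO and by 1.57 with PRT3789. The list of MYC and its targets had 5 more negative of 31 members, with DKC1 at -0.50 ± 0.09 (adjusted p = 0.00333). Those 5 became 1 with no filter, 3 with limma-voom and 8 with DESeq2 or all 18 libraries. They became 1 without replicate 2 of DMSO at 6 or at 48 h or without any 1 of the PRT3789 libraries of 48 h, 2 without replicate 3 of DMSO at 6 h, and 3 without replicate 1 of PRT3789 at 6 h or of DMSO at 48 h. In edgeR none of the 76 tested ribosomal protein genes and none of the 38 of oxidative phosphorylation was called (3 and 0 at an unadjusted p under 0.05, 1 and 0 with DESeq2, 0 and 0 with limma-voom), although their medians were -0.26 and -0.19. Those medians rested on single 6 h libraries: without PRT3789 6 h replicate 3 they were -0.02 and 0.05, without DMSO 6 h replicate 1 -0.05 and -0.01, and without DMSO 6 h replicate 3 -0.50 and -0.32. In bulk RNA fewer cells in a phase and less transcript per cell cannot be told apart.

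**Figure D4:**
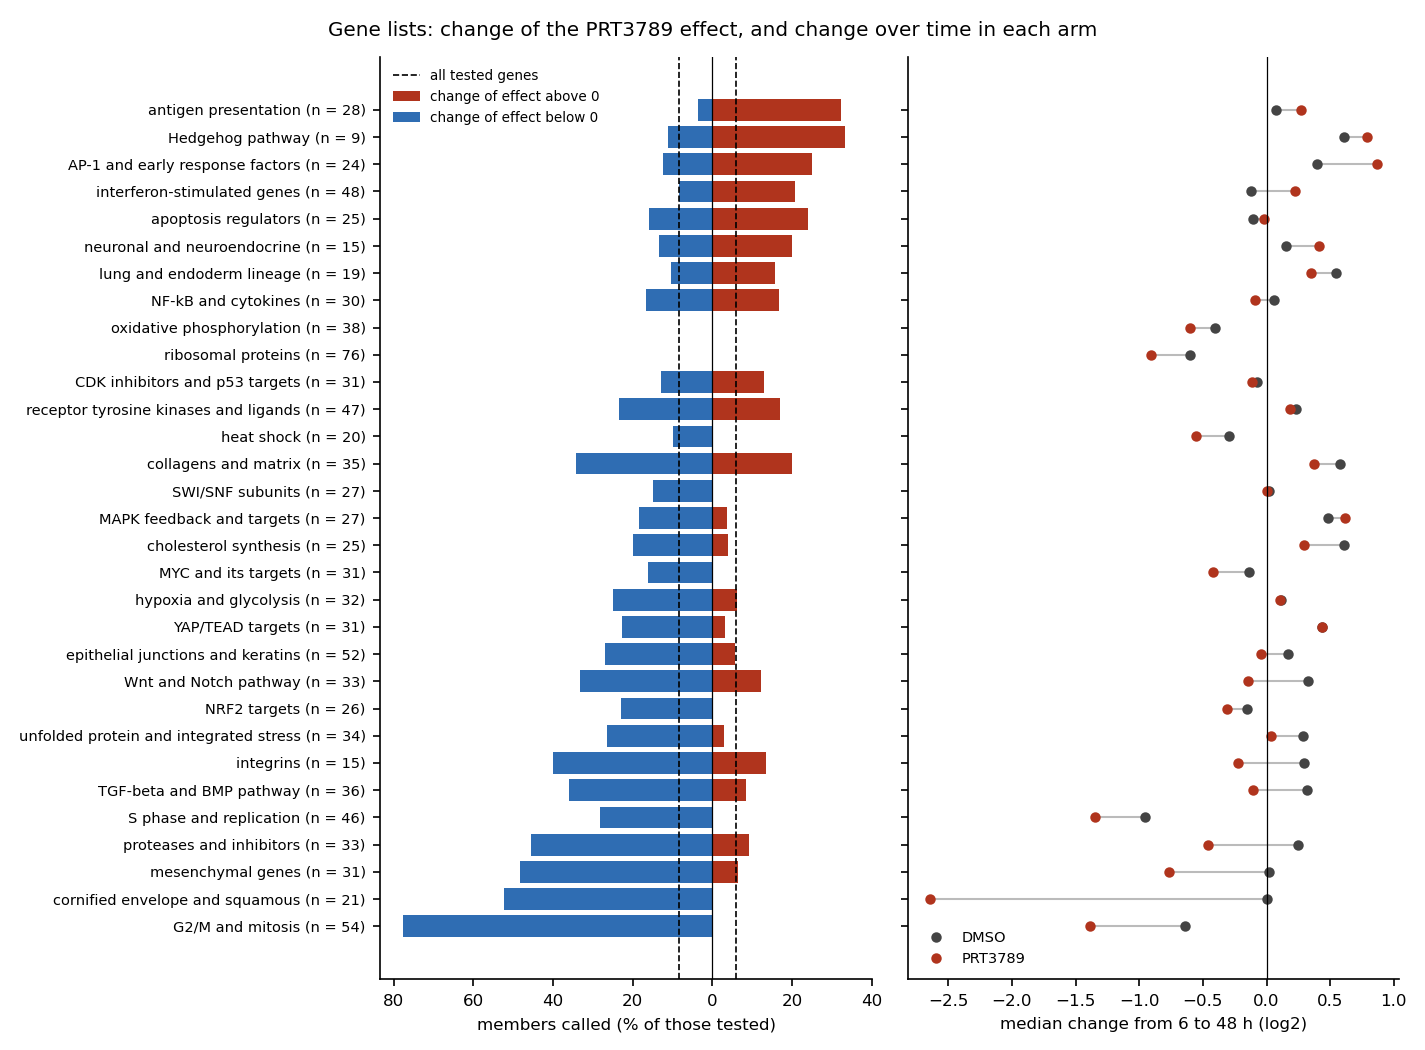
Left, percent of the tested members of each list with a called change of effect above 0 (right bars) or below 0 (left bars), with dashed lines at the 5.85% and 8.36% of all tested genes. Right, the median log2 change from 6 to 48 h of each list with DMSO and with PRT3789; mitotic genes fell in both arms, and cornified envelope genes with PRT3789.

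Antigen presentation had called members mostly in the positive direction. Of 28 tested members 9 became more positive, 1, HLA-DMA, more negative and 18 were not called, with a median of 0.30 (7 to 11 more positive and 0 to 3 more negative over the alternatives). TAP1, a subunit of the peptide transporter that loads MHC class I (chr6:32845209-32853704), stood at 133, 124 and 130.1 CPM in DMSO and 181, 171 and 176 CPM in PRT3789 at 6 h, and 139, 139 and 134 CPM in DMSO and 1296, 1295 and 1322 CPM in PRT3789 at 48 h. Treated libraries were 1.36-fold above controls at 6 h and 9.49-fold at 48 h, with a change of effect of 2.80 ± 0.10 (adjusted p = 1.88e-08). Its partner TAP2 had 1.34 ± 0.10 (adjusted p = 3.31e-06), and the immunoproteasome subunits PSMB9 and PSMB8 2.06 ± 0.25 (adjusted p = 0.000152) and 1.42 ± 0.19 (adjusted p = 0.000384). HLA-E, HLA-F, HLA-C and HLA-DRB1 rose by 0.85, 1.42, 0.50 and 0.90, though reads of HLA genes can be split among related copies. NLRC5, the transactivator of class I genes, was at 1.17 ± 0.36 (adjusted p = 0.0488).

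Interferon-stimulated genes were called in both directions. Of 48 tested members 10 became more positive and 4 more negative, with a median of 0.34. At 6 h none was higher and 6 were lower, with a median effect of -0.34. At 48 h 9 were higher and 10 lower, near the 17.5% and 19% of all tested genes. Among the 10 that became more positive, GBP3 went from -0.89 to -0.16 and PARP9 from -0.38 to 0.18, neither with a call at 48 h. IRF1, a transcription factor induced by interferon, stood at 41.1, 41.8 and 38.9 CPM in DMSO and 49, 45.3 and 48.6 CPM in PRT3789 at 6 h, and 49.9, 51.7 and 49.5 CPM in DMSO and 163, 157 and 168 CPM in PRT3789 at 48 h, and its change of effect was 1.46 ± 0.09 (adjusted p = 9.75e-07). IFIH1, a sensor of double-stranded RNA, had 1.08 ± 0.16 (adjusted p = 0.000782). GBP2 went against them at 51.6, 49.7 and 51.6 CPM in DMSO and 31.7, 36.3 and 28.6 CPM in PRT3789 at 6 h, and 57.9, 58.9 and 59.3 CPM in DMSO and 3.58, 2.28 and 2.09 CPM in PRT3789 at 48 h, a growing fall with a change of effect of -3.80 ± 0.21 (adjusted p = 2.4e-07). IFITM3, EPSTI1 and OASL became more negative as well, by -0.83, -1.41 and -1.24.

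The list of NF-kB and cytokines had 5 more positive and 5 more negative of 30 members, and 1 of the latter was the uneven CXCL8. The split moved with the settings, to 6 and 11 with DESeq2, 6 and 3 with limma-voom with or without weights per group and 9 and 9 with all 18 libraries. It was 5 and 10 without replicate 3 of DMSO at 48 h, 5 and 8 without replicate 1 of PRT3789 at 6 h and 5 and 3 without its replicate 3. BIRC3, an inhibitor of apoptosis and NF-kB target, stood at 43.7, 37.4 and 36.3 CPM in DMSO and 43.3, 41.9 and 35.6 CPM in PRT3789 at 6 h, and 37.6, 35.4 and 40.4 CPM in DMSO and 105, 110.0 and 114 CPM in PRT3789 at 48 h, with a change of effect of 1.5 ± 0.14 (adjusted p = 1.76e-05). NFKB2 and RELB, subunits of the non-canonical pathway, had 1.27 ± 0.15 (adjusted p = 0.000115) and 0.91 ± 0.15 (adjusted p = 0.00132). The chemokine CCL5 had -3.30 ± 0.61 (adjusted p = 0.00308) from levels of no more than 2.46 CPM. IL1A was at -7.10, a value that rests on levels under 1 CPM in all 12 libraries: 0.0823, 0.0411 and 0.0463 CPM in DMSO and 0.201, 0.0347 and 0.992 CPM in PRT3789 at 6 h, and 0.928, 0.698 and 0.109 CPM in DMSO and 0.0351, 0.0407 and 0 CPM in PRT3789 at 48 h.

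In the epithelial and squamous lists most called members were more negative. The cornified envelope list had 11 of 21 members more negative and none more positive, with a median of -2.23, and in edgeR none of the 21 was called at 6 h (1 higher and 4 lower at an unadjusted p under 0.05). SPRR3, a small proline-rich protein of the envelope, stood at 28.2, 28.9 and 26.3 CPM in DMSO and 24, 22.8 and 22.3 CPM in PRT3789 at 6 h, and 7.72, 6.98 and 8.19 CPM in DMSO and 0.421, 0.0814 and 0.131 CPM in PRT3789 at 48 h, a fall in both arms that was larger with PRT3789. IVL, which encodes involucrin, and the kallikrein KLK6 had changes of effect of -4.13 ± 0.39 (adjusted p = 1.91e-05) and -4.16 ± 0.24 (adjusted p = 3.56e-07). Of the 52 genes of epithelial junctions and keratins, 14 became more negative, 3 more positive and 35 were not called (12 more negative and 3 more positive of 50 without the uneven genes). The 14 included PKP1, at -7.95 (adjusted p = 0.0468), which the rule for uneven genes did not catch. Its effect went from 3.31 at 6 h to -4.64 at 48 h, with the same signs as those of KRT5 and KRT6A. KRT8, a keratin of simple epithelia, stood at 5104, 4187 and 4195 CPM in DMSO and 4441, 4608 and 3955 CPM in PRT3789 at 6 h, and 5291, 5088 and 4956 CPM in DMSO and 2178, 2012 and 2026 CPM in PRT3789 at 48 h, and its partner KRT18 had a change of effect of -1.29 ± 0.14 (adjusted p = 8.31e-05). KRT81 (-2.02) and KRT86 (-2.87) are close copies, so their separate values are uncertain. The tight junction gene CLDN1 went up by 1.02 ± 0.12 (adjusted p = 0.000156).

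Mesenchymal genes that were called were mostly more negative. Of 31 mesenchymal genes 15 became more negative and 2 more positive, with a median of -0.94 (14 and 2 of 30 without the uneven genes, and 4 more positive without replicate 1 of DMSO at 48 h). TPM1, a tropomyosin, stood at 707, 699.6 and 715 CPM in DMSO and 633, 629 and 641 CPM in PRT3789 at 6 h, and 719, 783 and 803 CPM in DMSO and 186, 193 and 183 CPM in PRT3789 at 48 h, with a change of effect of -1.88 ± 0.10 (adjusted p = 2.38e-07). SPARC, a matrix glycoprotein, and SNAI2, a repressor of epithelial genes, had -2.46 ± 0.13 (adjusted p = 2.38e-07) and -1.63 ± 0.16 (adjusted p = 2.51e-05). SNAI2 had been 11.7, 11.5 and 12.9 CPM with DMSO at 48 h against 4.28, 4.93 and 4.68 CPM at 6 h, and 2.46, 2.69 and 2.51 CPM against 3.18, 3.16 and 2.81 CPM with PRT3789, so most of its change came from the rise in the control arm.

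Of 35 collagens and other matrix genes 7 became more positive, 12 more negative and 16 were not called. COL4A1 and COL4A2, the paired chains of basement membrane collagen, had -1.59 ± 0.24 (adjusted p = 0.000873) and -1.49 ± 0.24 (adjusted p = 0.00121), and the laminin LAMB1 -0.99 ± 0.13 (adjusted p = 0.000267). On the other side, besides COL3A1, stood COL5A2 (1.26), COL9A3 (1.44) and LAMB2 (0.96). Of 33 proteases and inhibitors 15 became more negative and 3 more positive (14 and 3 of 31 without the uneven genes). The 3 were 5 with DESeq2, with a filter of 1 CPM or without replicate 3 of DMSO at 6 h, and 6 with all 18 libraries, with a replicate block within time points or without replicate 2 of PRT3789 at 6 h. MMP2, a gelatinase, stood at 272, 233 and 204 CPM in DMSO and 258, 267 and 214 CPM in PRT3789 at 6 h, and 198, 199 and 171 CPM in DMSO and 50.5, 44.6 and 44.3 CPM in PRT3789 at 48 h. TIMP1, an inhibitor of such enzymes, had a change of effect of -1.63 ± 0.12 (adjusted p = 2.63e-06). Of 15 integrins 6 became more negative, ITGB6 by -1.76 ± 0.12 (adjusted p = 1.72e-06) and ITGA3 by -1.64 ± 0.21 (adjusted p = 0.000235), and 2, ITGA1 (0.94) and ITGB8 (0.91), more positive. Only 1 integrin was called more positive when any 1 of 8 libraries was left out (all but replicates 2 and 3 of DMSO and replicate 2 of PRT3789 at 6 h and replicate 1 of DMSO at 48 h).

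Signalling lists had called members in both directions. Of 36 genes of the TGF-beta and BMP pathway 13 became more negative and 3 more positive, with a median of -0.47. The 13 were 8 without replicate 2 of PRT3789 at 48 h. The ligand BMP4 stood at 95.4, 105 and 109 CPM in DMSO and 95.2, 89.3 and 106 CPM in PRT3789 at 6 h, and 163, 169 and 174 CPM in DMSO and 67, 65.7 and 67.3 CPM in PRT3789 at 48 h, so that it rose with DMSO and fell with PRT3789. The ligands BMP7 and INHBB had -1.98 ± 0.55 (adjusted p = 0.0299) and -2.78 ± 0.53 (adjusted p = 0.00365), and the signal transducer SMAD3 -0.83 ± 0.15 (adjusted p = 0.00302). BMP2 went up by 1.33 ± 0.21 (adjusted p = 0.00124). Of 33 Wnt and Notch genes 11 became more negative and 4 more positive, or 2 without replicate 2 of DMSO or replicate 3 of PRT3789 at 48 h. The secreted Wnt antagonists SFRP1, DKK1 and DKK3 had -2.01, -1.39 and -1.52, the ligand WNT5B -1.38, and the Notch receptor NOTCH3 and ligand JAG2 1.00 and 0.99.

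Of 9 Hedgehog genes GLI1, HHIP, a target that binds the ligand, and SMO, the signalling receptor, became more positive, a count of 3 that was 1 with voom weights per group and 5 with all 18 libraries. GAS1, a co-receptor, became more negative by -1.12 ± 0.15 (adjusted p = 0.000361). Of 47 receptor tyrosine kinases and ligands 8 rose and 11 fell in this measure. The 8 were 5 without replicate 1 of PRT3789 at 48 h. EGFR, the epidermal growth factor receptor, stood at 295, 214 and 217 CPM in DMSO and 226, 262 and 164 CPM in PRT3789 at 6 h, and 481, 417 and 410.3 CPM in DMSO and 865, 812 and 859 CPM in PRT3789 at 48 h. Its change of effect was 1.11 ± 0.23 (adjusted p = 0.00612), and NRG1, a ligand of its relatives, had 1.32 ± 0.12 (adjusted p = 1.46e-05). AXL had -1.70 ± 0.33 (adjusted p = 0.00433) and EPHB2 -2.01 ± 0.27 (adjusted p = 0.000295).

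Early response and TEAD targets were called in both directions. Of 24 AP-1 and early response factors 6 became more positive and 3 more negative, or 5 more negative with either replicate block. KLF4, a zinc-finger factor, stood at 9.87, 9.79 and 11.1 CPM in DMSO and 10.6, 9.3 and 10.2 CPM in PRT3789 at 6 h, and 11.5, 12.8 and 10.1 CPM in DMSO and 39.3, 38.7 and 42 CPM in PRT3789 at 48 h. ATF3, induced by stress, had a change of effect of 1.52 ± 0.18 (adjusted p = 0.000109). FOSL1, an AP-1 subunit, stood at 9.13, 8.55 and 8.94 CPM in DMSO and 5.18, 4.44 and 5.41 CPM in PRT3789 at 6 h, and 7.94, 6.82 and 5.71 CPM in DMSO and 1.93, 2.08 and 2.22 CPM in PRT3789 at 48 h, a fall that was present at 6 h and grew. Of 31 YAP/TEAD targets 7 became more negative and 1, VGLL2, more positive. That split did not hold throughout: 6 became more positive with DESeq2, 7 with all 18 libraries, 5 with a replicate block within time points, 4 with a block over all groups, voom weights per group or the length trend removed and 2 with a filter of 1 CPM. It was 5 without replicate 2 of PRT3789 at 6 h, 4 without replicate 3 of DMSO at 6 h and 2 without replicate 1 of DMSO at 48 h. CCN2, also known as CTGF, rose over time in both arms, from 93, 83.8 and 90.9 to 316, 365 and 349.7 CPM with DMSO and from 67, 68.1 and 66.7 to 118, 127 and 137 CPM with PRT3789, and its change of effect was -1.02 ± 0.11 (adjusted p = 9e-05). Of 27 MAPK feedback genes 5 became more negative, among them the phosphatase DUSP10 (-1.32 ± 0.19 (adjusted p = 0.000543)) and the cytokine LIF, and 1, CCND1, more positive (1.02 ± 0.23 (adjusted p = 0.0101)). Of these 27, 2 to 4 became more positive with DESeq2, all 18 libraries, the length trend removed or a replicate block and without replicate 2 or 3 of DMSO at 6 h, replicate 1 of PRT3789 at 6 h or replicate 1 of DMSO at 48 h.

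Of 31 CDK inhibitors and p53 targets 4 moved each way. CDKN1A, the inhibitor p21, stood at 59.7, 60.4 and 63.6 CPM in DMSO and 40.5, 41.8 and 40.2 CPM in PRT3789 at 6 h, and 45.5, 47 and 45.5 CPM in DMSO and 15.9, 16 and 16.2 CPM in PRT3789 at 48 h, a growing fall with a change of effect of -0.94 ± 0.09 (adjusted p = 2.63e-05), whereas CDKN2B, the inhibitor p15, was a growing rise with 0.79 ± 0.09 (adjusted p = 0.000131). Of 25 apoptosis regulators 6 became more positive and 4 more negative. The 4 were 1 without replicate 2 of PRT3789 at 48 h and 2 without replicate 2 of DMSO or replicate 1 of PRT3789 at 6 h or without replicate 1 of either treatment at 48 h. The 6 were 4 in 10 of the 12 leave-outs. Besides BIRC3, the caspase CASP8 rose in this measure by 0.58, and BOK, a member of the BCL2 family, fell by 0.79. The 27 SWI/SNF genes had 4 more negative, SMARCD2 (-0.38 ± 0.10 (adjusted p = 0.0183)), BRD7, ACTL6A and SMARCB1, and none more positive. Without replicate 3 of PRT3789 at 48 h none of these 4 was called, and 1 or 2 were with no filter or when any 1 of 7 other libraries was left out.

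Metabolic and stress lists had mostly negative calls. Of 34 genes of the unfolded protein and integrated stress responses 9 became more negative and ATF3 more positive, with 14 more negative under DESeq2. ATF4, the central factor of the integrated stress response, had -0.89 ± 0.27 (adjusted p = 0.0458), and its targets SHMT2 and PHGDH, enzymes of serine and glycine synthesis, -0.96 ± 0.10 (adjusted p = 5.08e-05) and -0.83 ± 0.11 (adjusted p = 0.000241). Of 32 hypoxia and glycolysis genes 8 became more negative, SLC2A1 the most, and 2 more positive, ADM, a vasodilator peptide, with 1.64 ± 0.19 (adjusted p = 0.000139) and P4HA1 with 0.81 ± 0.11 (adjusted p = 0.00045). Those 2 were 4 with DESeq2 or a replicate block, 5 with the length trend removed and 7 with all 18 libraries. Of 25 cholesterol synthesis genes 5 became more negative and 1, TM7SF2, more positive, with 9 more negative under DESeq2, with all 18 libraries or with the length trend removed. INSIG1, which restrains the pathway, stood at 42.9, 43 and 42.8 CPM in DMSO and 46.7, 38.2 and 41.3 CPM in PRT3789 at 6 h, and 73.7, 70.6 and 74 CPM in DMSO and 32.8, 31 and 32.3 CPM in PRT3789 at 48 h, so that it rose with DMSO and fell with PRT3789. Of 26 NRF2 targets 6 became more negative, TKT, of the pentose phosphate pathway, by -1.02 ± 0.11 (adjusted p = 9.23e-05), and none more positive.

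Lineage lists were small. Of 15 neuronal and neuroendocrine genes 3 became more positive, CHGB, SYP and MAP2, by 2.45, 2.08 and 1.32, and 2 more negative, L1CAM, an adhesion molecule, by -3.94 ± 0.29 (adjusted p = 3.31e-06) and ENO2. SYP, of synaptic vesicles, reached 7.9, 7.61 and 6.66 CPM at 48 h with PRT3789. Of 19 lung and endoderm genes 3 became more positive, HNF4G, AGR2 (1.17) and MUC1 (0.99), and 2 more negative, LPCAT1 (-1.14) and SLC34A2 (-2.66). SLC34A2 stood at 8.47, 6.99 and 6.76 CPM in DMSO and 16.8, 17.9 and 18.5 CPM in PRT3789 at 6 h, and 22.9, 18.5 and 17.7 CPM in DMSO and 4.07, 3.87 and 14.1 CPM in PRT3789 at 48 h, so among treated libraries it was high in the 4 that held SFTPA2 and PLAT, and its part in that pattern was not tested. Of the 7 blood cell markers tested CD68 and CSF1R became more negative, and the leukocyte markers PTPRC, CD14, ITGAM, CD79A and LYZ were above 0 in all 12 libraries at no more than 1.99 CPM.

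The change of effect can come from either arm, and both were read. Of the 932 genes that became more positive, the treated arm moved more than the control arm from 6 to 48 h in 845 (90.7%), and of the 1333 that became more negative in 1071 (80.3%). The same share over all tested genes was not counted, so these shares cannot be read as particular to the called genes. Against a background of 30.2% of genes called over time with DMSO and 52.3% with PRT3789, 558 of the 932 (59.9%) rose with PRT3789 without a call with DMSO and 263 (28.2%) rose in both. Of the 1333, 603 (45.2%) fell with PRT3789 without a call with DMSO, 314 (23.6%) fell in both, and 210 (15.8%) rose with DMSO and fell with PRT3789. The contrast with time in each arm shares its libraries with the change of effect, so these shares are descriptive.

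For 168 of the 1333 (12.6%) the control arm rose and the treated arm was not called. STC2, a secreted glycoprotein, stood at 24.5, 24.7 and 21.8 CPM in DMSO and 18.1, 20.6 and 19 CPM in PRT3789 at 6 h, and 59, 63.5 and 63.7 CPM in DMSO and 19.5, 20.2 and 23 CPM in PRT3789 at 48 h. It rose by 1.39 with DMSO, and with PRT3789 the change was 0.12 ± 0.09 (adjusted p = 0.277). GAS1 rose by 1.06 with DMSO against -0.06 with PRT3789, and the cytokine LIF and the MYC relative MYCN had 0.89 against -0.50 and 0.79 against 0.17. The call for MYCN was lost in 12 of 24 alternatives. A treated arm without a call does not show that it stayed the same: its changes among the 168 ran from -4.01 (ANO1) to 0.85 (MYLK3). ANO1 was among the uneven genes, with 0, 0.0347 and 2.5 CPM in PRT3789 at 6 h, so its value rests on a single library. With DMSO alone 2367 genes (14.8%) were higher and 2442 (15.3%) lower at 48 h than at 6 h. Whether time in culture or the differences between the libraries of 6 and 48 h given above accounted for these was not tested.

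**Figure D5:**
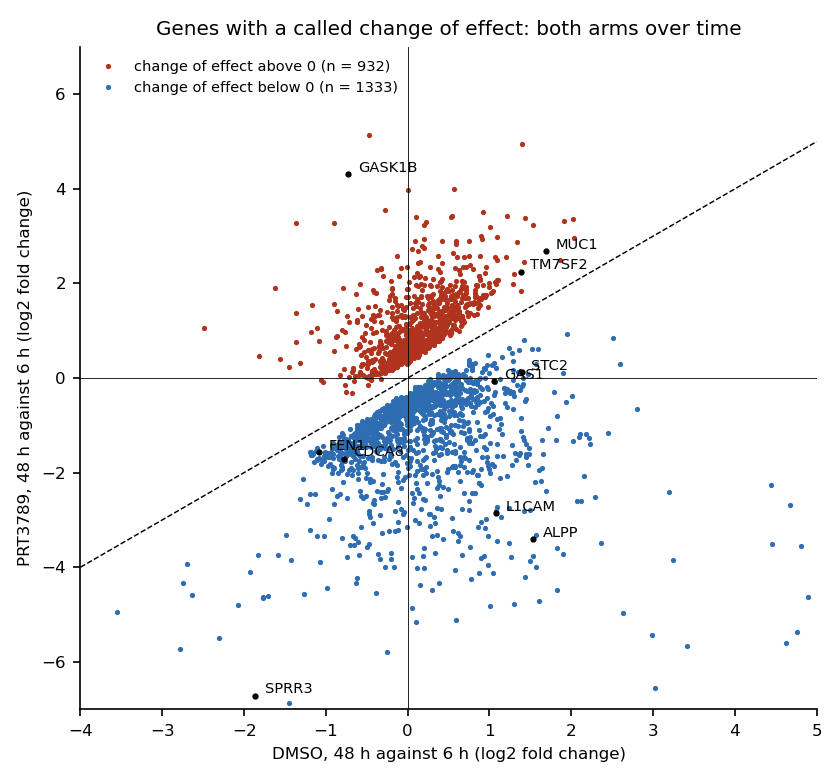
Log2 change from 6 to 48 h with DMSO (horizontal) and with PRT3789 (vertical) for the 2265 genes with a called change of effect, with the dashed line marking equal changes; 11 genes fall outside the axes. Most genes lie farther from 0 on the vertical than on the horizontal axis, while STC2 and GAS1 moved with DMSO alone.

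Calls were also counted by RefSeq biotype: 2072 of 13427 protein-coding genes (15.4%) and 142 of 1805 long non-coding RNAs (7.87%) had a called change of effect. Non-coding genes with low counts have less chance of a call, and the share at matched levels was not tested. HIVEP2-DT, a divergent transcript, was a growing rise at 0.946, 0.781 and 0.51 CPM in DMSO and 2.01, 1.56 and 1.2 CPM in PRT3789 at 6 h, and 1.82, 2.25 and 2.04 CPM in DMSO and 15.1, 15.4 and 19.4 CPM in PRT3789 at 48 h, with a change of effect of 1.95 ± 0.33 (adjusted p = 0.00181).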

How the data were processed

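The authors deposited 1 table of expected counts per gene symbol for 18 libraries, given as whole numbers. Per the submitters' processing notes, nf-core/rnaseq 3.17.0 was used with Trim Galore, STAR and RSEM on GRCh38 patch 14 with annotation release 110; the options of each tool are not given in the sources used here. RSEM shares reads among similar genes, so near-identical copies are uncertain.

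The 12 libraries of 6 and 48 h were fitted together in edgeR 4.0.16 (R 4.3.3) with 1 mean per group, TMM factors, filterByExpr and robust quasi-likelihood tests, which kept 15940 of 43236 symbols. The change of effect was the contrast (PRT3789 minus DMSO at 48 h) minus (PRT3789 minus DMSO at 6 h), with Benjamini-Hochberg adjustment over all tested genes and a threshold of 0.05. The 72 h libraries had their own fit. DESeq2 1.42.0, limma 3.58.1 (voom), other scalings and filters, all 18 libraries, replicate blocks and leaving out each library were alternatives, and the steps were tested on simulated data. The common biological coefficient of variation was 0.129.

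The gene lists and their members, unlike the libraries, were chosen with earlier results of these data known. Genes were named by a rule: among called genes with a mean of at least 5 CPM in a group, the 12 largest changes of effect per direction; the 3 members of each list with the smallest p; the kept and growing genes with the largest 6 h effects (8 and 6 per direction); the 4 shrunk, lost or reversed genes per direction with the smallest p; and SMARCA2, SMARCA4, KRT80 and PLAU. Further list members outside that rule, such as EGFR and BMP2, were chosen after their values were seen. Some genes that the rule names are not reported here. Lists, names and promoter windows were matched by symbol, with 42276 symbols in RefSeq.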

Additional observations from a re-analysis of the deposited data

Results flagged for a closer look

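The effects of PRT3789 at 6 and 48 h differed by the test of the difference itself (edgeR's quasi-likelihood test, Benjamini-Hochberg adjusted) for 932 genes that became more positive and 1333 that became more negative. Among them 5 genes were called in opposite directions at the 2 times. That rests on the calls at 6 h, which went from 86 higher and 356 lower to 21 and 126 with 6 h fitted apart. Whether the 5 keep their 6 h calls under the alternatives was not tested. CYP24A1 went from above to below DMSO, with a change of effect of -2.33, and every one of its 3 treated libraries lay on the stated side of the 3 controls at both times. GADD45A (1.21), NLRP3 (1.06), DRAM1 (0.62) and ZBTB1 (0.61) went from below to above DMSO. NLRP3 stood at 8.39, 7.52 and 7.6 CPM in DMSO and 4.78, 5.8 and 4.86 CPM in PRT3789 at 6 h, and 6.12, 4.91 and 4.87 CPM in DMSO and 6.35, 7.45 and 7.96 CPM in PRT3789 at 48 h. Single libraries were also looked at by a fixed limit, among genes with a mean of at least 1 CPM in a group. A library passed it above 3 times the next highest of its group, after 0.5 CPM was added to the latter. Each gene was counted once, at its most extreme library. There were 12 such genes for replicate 1 of DMSO at 48 h and 10 for replicate 3 of PRT3789 at 6 h. Replicate 3 of PRT3789 at 48 h had 8, and no other library had more than 6.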

How the results depend on the processing

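The counts of 932 and 1333 genes ran from 593 to 976 and from 1001 to 1474 when each library was left out. With all 18 libraries in the fit the first was 1438. At an adjusted p under 0.01 they were 457 and 750, and with at least a 2-fold shift 333 and 626. Of the 2265 calls, 2068 were shared with limma-voom with weights per group, 2244 with DESeq2 and 2237 with 18 libraries. The last 2 called more genes in all, 1107 more positive and 1715 more negative with DESeq2 and 1438 and 1694 with 18 libraries. With voom weights per group there were 897 and 1300. Scaling moved the median change of effect over all genes between -0.01 and 0.02 and the share of calls that were higher between 37.5% and 41.3%.

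Leaving out each library gave 547 to 860 delayed rises and 854 to 1288 delayed falls, 17 to 45 growing rises, 94 to 145 growing falls, 5 to 39 kept rises and 32 to 68 kept falls. At 6 h it gave 31 to 141 genes higher and 229 to 355 lower, and at 48 h 2051 to 2481 and 2407 to 2766. Growing rises numbered 87 with 18 libraries, 56 with the length trend removed, 77 with DESeq2 and 18 with voom weights per group, which gave 99 growing falls. Kept rises numbered 11 with no filter, 59 with 18 libraries, 34 with the length trend removed, 49 with DESeq2 and 8 with voom weights per group. Kept falls numbered 43 with total counts, 110 with 18 libraries and 41 with voom weights per group. With 6 h fitted apart 21 genes were higher and 126 lower. The cause of these shifts was not tested. The undecided, shrunk, lost and reversed classes were not recounted under the alternatives.

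Of the 164 tested genes under the naming rule, 138 were called and 119 of these were called under all 24 alternatives. For 9 genes, none of them called, the sign changed. Leaving out each library moved NOG from -0.0524 to 0.0969, EEPD1 from -0.114 to 0.058, FLRT2 from -0.0612 to 0.22, DNAJB5 from -0.10 to 0.14, ARHGAP5-AS1 from -0.18 to 0.0022, NECTIN4 from -0.09 to 0.18, CSRNP1 from -0.10 to 0.11, TFAP2C from -0.0615 to 0.203 and SMARCA4 from -0.13 to 0.36. NOG was -0.018 with DESeq2 size factors and -0.019 with DESeq2. EEPD1 was 0.0042 with total counts, 0.0024 with a filter of 1 CPM and 0.0014 with 18 libraries. With the length trend removed FLRT2 was -0.088 and ARHGAP5-AS1 0.0022.

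Same-numbered libraries of the 2 treatments did not deviate together throughout (r of 0.485, -0.454 and 0.776 at 6 h and 0.312, -0.0433 and -0.146 at 48 h). Of the other pairs at 6 h, replicate 1 of DMSO had 0.753 with replicate 2 of PRT3789 and -0.843 with its replicate 3. Deviations within a group of 3 libraries depend on each other, so these values cannot show whether same-numbered libraries were paired. The labels do not say it either. A replicate block within each time point gave 1037 and 1413 calls, and a replicate block over all groups 1050 and 1420. With 3 libraries per group, changes in genes of low counts are the least precise.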

Other observations

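Several genes with very small p-values fell outside the naming rule and were chosen after their values were seen. BCAS1, a gene first found amplified in breast cancer, stood at 23.9, 24 and 23.2 CPM in DMSO and 19.2, 21.1 and 16.7 CPM in PRT3789 at 6 h, and 30.1, 30.6 and 30.3 CPM in DMSO and 2.07, 1.87 and 1.73 CPM in PRT3789 at 48 h. Its groups lay close at 6 h and far apart at 48 h, with a change of effect of -3.68 ± 0.15 (adjusted p = 2.62e-08). CDA, the cytidine deaminase that inactivates cytidine analogues, stood at 37.8, 35.9 and 40.9 CPM in DMSO and 29.6, 28.4 and 29 CPM in PRT3789 at 6 h, and 52.1, 47.7 and 44.1 CPM in DMSO and 3.61, 3.75 and 3.07 CPM in PRT3789 at 48 h, with a change of effect of -3.39 ± 0.14 (adjusted p = 2.62e-08). PINK1, the kinase that marks damaged mitochondria, stood at 149.6, 148 and 138 CPM in DMSO and 136, 139 and 133 CPM in PRT3789 at 6 h, and 226, 206 and 208 CPM in DMSO and 62.4, 58.2 and 59.9 CPM in PRT3789 at 48 h, with a change of effect of -1.73 ± 0.10 (adjusted p = 3.04e-07).

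VSIR, which encodes the immune checkpoint VISTA, had a change of effect of -2.45 ± 0.12 (adjusted p = 1.57e-07), and the surface glycoprotein CD24 one of -2.02 ± 0.12 (adjusted p = 3.56e-07). ATP6V1B1, a subunit of the vacuolar proton pump, had -4.71 ± 0.24 (adjusted p = 1.75e-07), and the voltage-gated potassium channel KCNH1 -3.25 ± 0.19 (adjusted p = 3.62e-07). The matrix genes TINAGL1 and VWA1 had -3.35 and -2.12. ERVMER34-1, a gene derived from an endogenous retrovirus, had -2.82 ± 0.16 (adjusted p = 3.56e-07). PSG8 (-3.76) belongs to a family of close copies, so its own value is uncertain.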
